A study of Mus musculus with 4 samples.

Results

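The 32 genes described here are 14 genes of the ATF4 response and 18 genes of cytosolic aminoacyl-tRNA synthetases, out of 17921 genes in the deposited table. They were chosen by name. The ATF4 response genes were Atf4, Atf5, Atf3, Ddit3, Cebpb, Cebpg, Asns, Aldh18a1, Pycr1, Cth, Chac1, Trib3, Nupr1 and Vldlr. The synthetase genes were Aars, Cars, Dars, Eprs, Gars, Hars, Iars, Kars, Lars, Mars, Nars, Qars, Rars, Sars, Tars, Vars, Wars and Yars. All 32 were in the table, and all 32 passed the filter on low counts that left 12680 genes for testing.

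Total RNA was sequenced from mouse Th17 cells, which produce interleukin 17. The cultures were started with naive CD4+ T cells, from 2 mice that were PRAK KO and 2 that were wild-type (WT), were polarised toward Th17 in vitro for 72 h, and were collected whole on day 3. PRAK, encoded by Mapkapk5, is a protein kinase downstream of p38, and all 4 cultures had the same treatment and time. Each mouse gave 1 library, and the names WT 1, WT 2, KO 1 and KO 2 carry the labels' mouse numbers. The labels give neither the strain, age and sex of the mice nor the allele and the deleted part of Mapkapk5.

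ATF4 is a transcription factor whose messenger RNA is translated better when the initiation factor eIF2 is phosphorylated, as happens when amino acids run short or the endoplasmic reticulum is under stress. It pairs with C/EBP family proteins and turns on genes for amino acid synthesis and transport, for tRNA charging and for feedback on the response itself. Aminoacyl-tRNA synthetases join each amino acid to its tRNA, and several of their cytosolic genes are known ATF4 targets. Activated T cells depend on amino acid supply for growth.

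ATF4 and its C/EBP partners bind a composite C/EBP-ATF response element. The letters TGATGNAA (N is any base) were searched on both strands in RefSeq promoter windows of build GRCm38.p6, each running from 250 bases before a start site to 50 after it. On the opposite strand the same element reads TTNCATCA. Of the 32 members, 24 had a window in the RefSeq table used here, and the 8 others were Cth, Cars, Hars, Lars, Nars, Rars, Vars and Wars. Within the 250 bases before the start, 9 of 24 members (37.5%) held the element, against 3.45% of 32851 promoter windows of the same length and 2.93% of the 14013 genes of the deposited table that had a window. The 9 comprised 6 of 13 ATF4 response genes and 3 of 11 synthetase genes. The element is shown for 8 of these 9 because it is the site through which ATF4 is known to act. Each line gives 30 bases, 5′ to 3′ on the strand of the gene, with the element in capitals.
Asns (chr6:7693214-7693243, minus strand): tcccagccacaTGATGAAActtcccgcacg
Chac1 (chr2:119351038-119351067, plus strand): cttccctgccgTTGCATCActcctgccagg
Pycr1 (chr11:120643833-120643862, minus strand): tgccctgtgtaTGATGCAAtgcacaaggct
Vldlr (chr19:27216809-27216838, plus strand): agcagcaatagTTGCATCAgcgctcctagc
Nupr1 (chr7:126625562-126625591, minus strand): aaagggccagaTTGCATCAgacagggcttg
Atf3 (chr1:191183425-191183454, minus strand): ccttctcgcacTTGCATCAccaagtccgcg
Gars (chr6:55037960-55037989, plus strand): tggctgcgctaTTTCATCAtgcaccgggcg
Tars (chr15:11399655-11399684, minus strand): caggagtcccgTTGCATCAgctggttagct

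In 6 of the 8 genes shown the variable base was a C on the strand that reads TGATG, giving TGATGCAA. Over all windows, 1134 held TGATGNAA before the start and 260 (0.791% of all windows) held TGATGCAA there. Asns and Gars carried TGATGAAA instead. The first base of the element lay 23 bases before the start in Asns, 15 in Tars, 30 in Gars, 103 in Pycr1, 110 in both Nupr1 and Atf3, 193 in Chac1 and 200 in Vldlr. The Vldlr element belongs to the second of 2 annotated start sites and so lies inside the span of the gene. With the 50 bases after the start included, Trib3, Iars and Yars were added (12 of 24, against 3.97% of windows), at 15, 8 and 4 bases after the start. A match of letters is a description of the window and does not show binding.

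**Figure D1:**
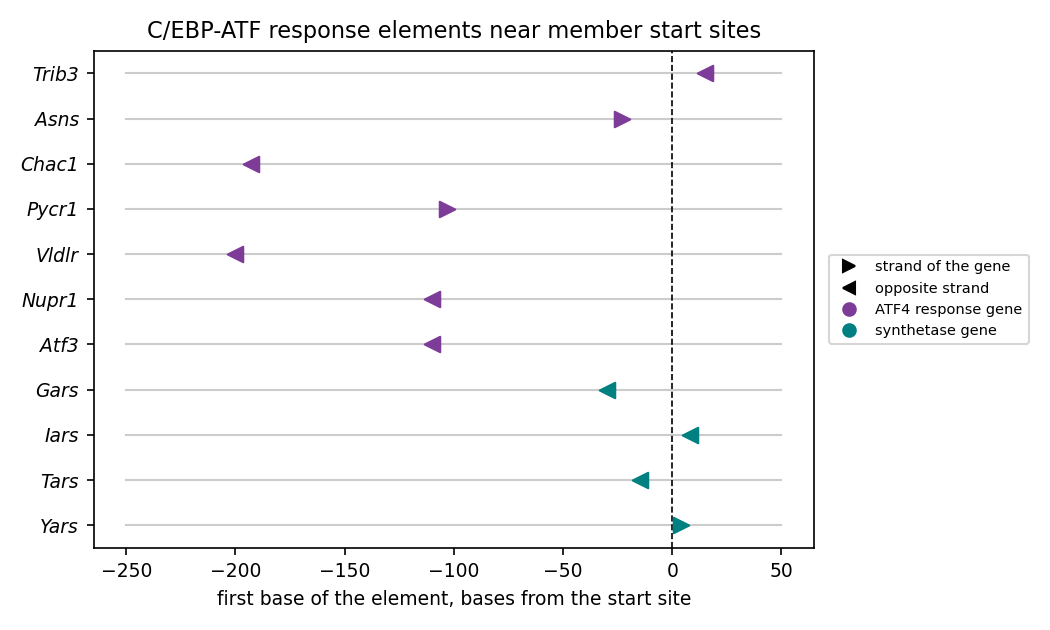
Position of each TGATGNAA element in the promoter windows of 11 members that hold one, in bases from the annotated start site (dashed line); each grey line is one window from 250 bases before to 50 after the start, and triangles point along the strand of the gene or against it. Elements of 8 members lie before the start, from 200 bases (Vldlr) to 15 bases (Tars), and those of Trib3, Iars and Yars lie only after it.

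The longer promoter stretch is given for Chac1, the member with the widest gap between the KO mice, and for Atf3, the member that rose in KO. Both run from 250 to 21 bases before the start, with the element in capitals.
Chac1 (chr2:119350992-119351221, plus strand): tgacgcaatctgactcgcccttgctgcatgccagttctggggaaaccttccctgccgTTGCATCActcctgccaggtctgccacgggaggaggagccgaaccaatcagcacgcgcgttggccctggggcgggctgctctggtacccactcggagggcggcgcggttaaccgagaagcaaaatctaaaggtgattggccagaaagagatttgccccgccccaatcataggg
Atf3 (chr1:191183354-191183583, minus strand): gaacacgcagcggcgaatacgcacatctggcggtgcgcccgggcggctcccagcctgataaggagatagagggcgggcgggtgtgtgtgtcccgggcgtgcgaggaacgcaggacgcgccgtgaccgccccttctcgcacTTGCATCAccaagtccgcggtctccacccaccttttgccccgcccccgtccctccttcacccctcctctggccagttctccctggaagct

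Total expected counts lay between 19418012 and 20125124 per library. Levels are given as CPM, counts scaled to library size with TMM factors. Mapkapk5 stood at 35.6 and 38.4 CPM in WT 1 and WT 2, against 20.04 in KO 1 and 21.6 in KO 2, a log2 fold change of -0.83 (standard error 0.13, adjusted p = 0.0194) in the labelled direction, a call lost without WT 1 (0.0918) or WT 2 (0.169). The T cell markers Cd3e (between 165 and 228 CPM) and Cd4 (between 516 and 940) and the Th17 marker Il17a (between 237 and 643) were present in all 4 libraries. Of markers of other cell types, 12 of 12 for myeloid, 7 of 7 for B cells and 7 of 9 for CD8 T and NK cells passed the filter on low counts. That filter can be passed through the KO libraries alone, so passing it does not show presence in WT. The myeloid marker Adgre1, for example, had expected counts of 1 and 2 in WT 1 and WT 2, against 12 and 19 in KO 1 and KO 2. In these bulk cultures, fewer cells of a type and less RNA per cell cannot be told apart.

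Between PRAK KO and WT cells the test found few changes among the members. Atf3, a stress-induced transcription factor gene, rose, while Vldlr, a lipoprotein receptor gene and known ATF4 target, and Dars, the gene of the aspartate synthetase, fell. In all, 1 of 32 members rose and 2 fell, where 5.14% of all genes tested rose and 8.23% fell, 13.4% in either direction (edgeR quasi-likelihood test, Benjamini-Hochberg adjusted p under 0.05 over 12680 genes). The share of members that passed was therefore no higher than that of all genes. The log2 fold change was positive for 22 members and negative for 10, with a median of 0.31 against 0.02 for all genes tested. KO and WT values were fully separate for 12 members, 8 higher and 4 lower in KO, and for 63.0% of all genes (31.7% higher, 31.4% lower).

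**Figure D2:**
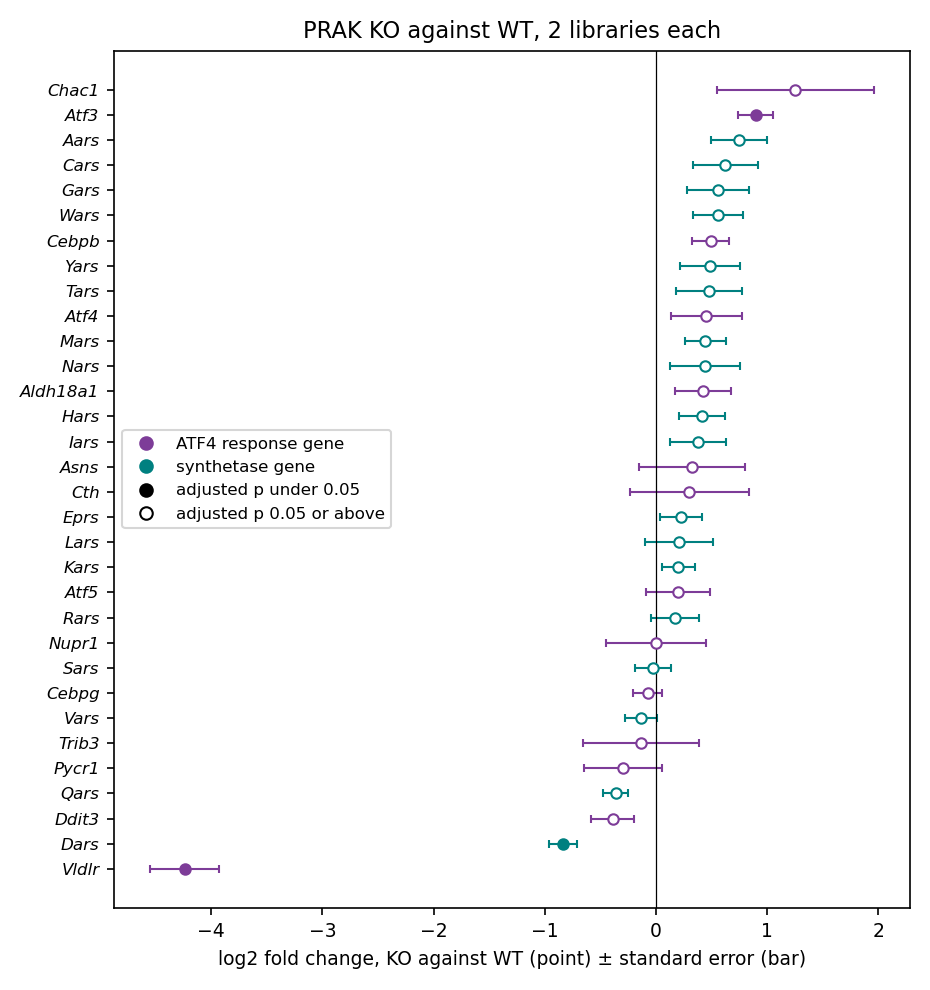
Log2 fold change of each of the 32 members in PRAK KO against WT cells (point) with its standard error (bar), from the fit over all genes with 2 libraries per genotype; filled points have an adjusted p under 0.05. Only Atf3, Dars and Vldlr are filled, Vldlr stands alone at -4.24, and 22 points lie above 0.

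Most members stood apart between the 2 KO mice. KO 1 held the highest value of the 4 libraries in 26 of 32 members, 11 of 14 ATF4 response genes and 15 of 18 synthetase genes, where 31.6% of all genes tested were highest in KO 1. KO 1 lay above KO 2 in 30 of 32 members, the exceptions being Ddit3 and Qars, against 49.8% of all genes. The level in KO 1 was at least 1.5 times that in KO 2 for 21 members, 10 of the ATF4 response and 11 synthetases, against 7.86% of all genes. The 1.5-fold limit was chosen after the values were seen. The median log2 ratio of KO 1 to KO 2 was 0.97 for the ATF4 response genes (range -0.20 to 2.33) and 0.64 for the synthetase genes (range -0.05 to 0.99), and -0.0024 for all genes. Between the WT mice the medians were -0.17 and 0.08, with ranges of -0.44 to 0.18 and -0.11 to 0.24. These counts describe 1 mouse of a genotype against another and carry no test.

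**Figure D3:**
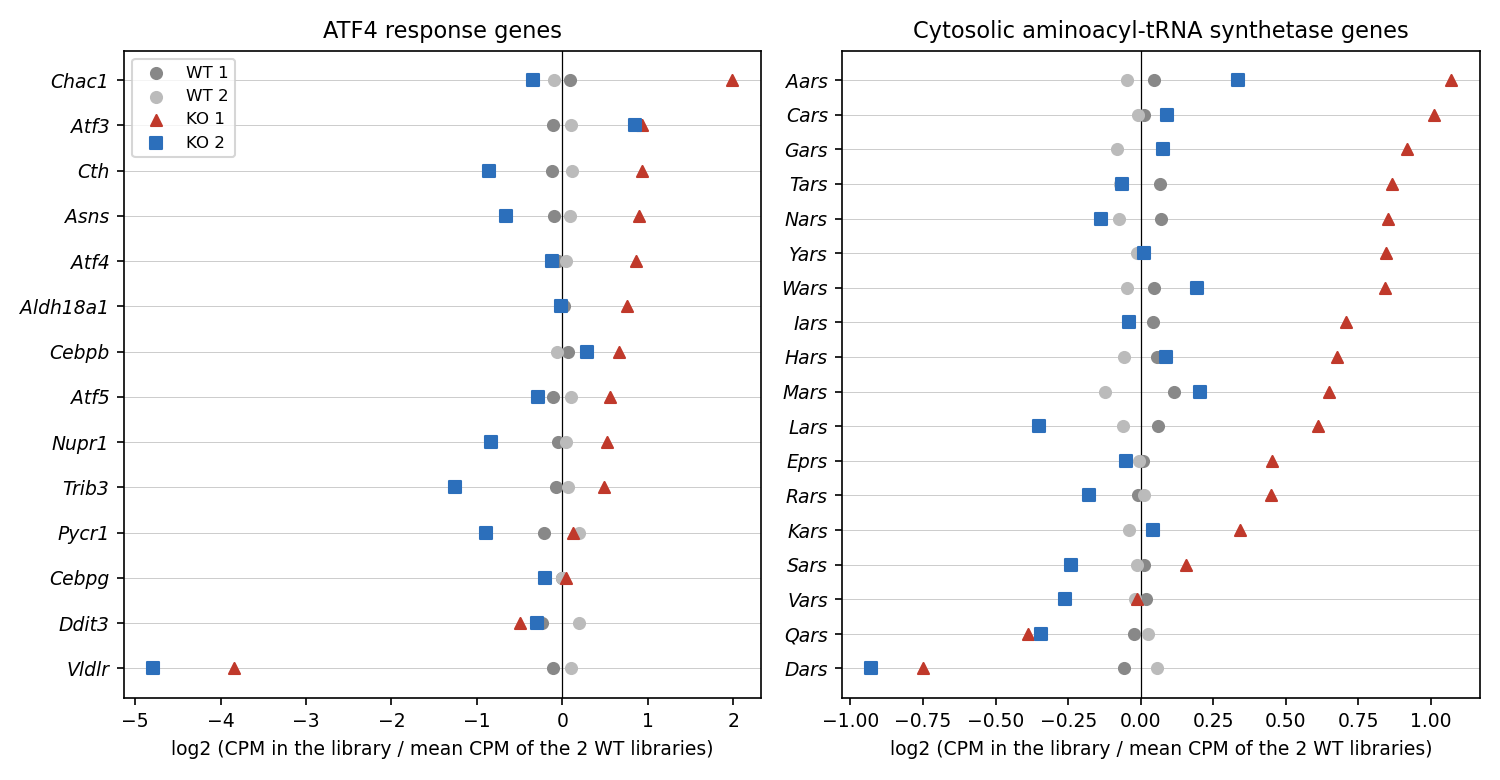
Level of each member in each of the 4 libraries, as the log2 ratio to the mean CPM of the 2 WT libraries, with ATF4 response genes on the left and synthetase genes on the right (axes differ). The KO 1 triangle is the rightmost symbol in 26 of 32 rows, while the KO 2 square lies near or below the WT circles in most rows, and Vldlr, Ddit3, Dars and Qars lie low in both KO libraries.

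KO 2 lay below both WT libraries in 19 of 32 members and above both in 8, where it did so in 43.1% and 44.0% of all genes tested. In the ATF4 response it did so for 11 genes, and lay between them for 1 and above both for 2, Cebpb and Atf3. Among the synthetases it lay below both for 8 of 18, a share near that of all genes, between for 4 and above both for 6. Relative to the WT mean, the median log2 ratio was 0.61 for KO 1 and -0.32 for KO 2 in the ATF4 response, and 0.66 and -0.05 in the synthetases. The summed level of the 14 ATF4 response genes was 857 and 925 CPM in WT 1 and WT 2, against 1399.9 in KO 1 and 716 in KO 2. That of the 18 synthetases was 3328, 3194, 4566 and 3041 CPM.

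**Figure D4:**
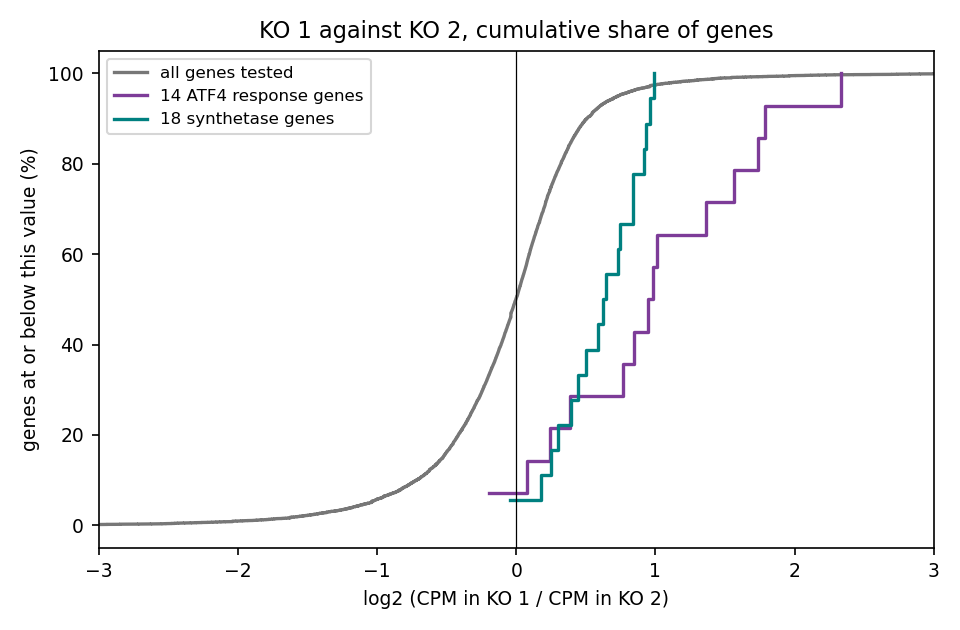
Cumulative share of genes, in percent, at or below each log2 ratio of KO 1 to KO 2, for the 12680 genes tested (grey), the 14 ATF4 response genes (purple) and the 18 synthetase genes (teal); the horizontal axis ends at -3 and 3. The curve of all genes crosses the middle near 0, whereas the medians of the members are 0.97 and 0.64 and only 1 gene of each group lies below 0.

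Several marker lists also differed between the KO libraries. The summed level of 10 T cell markers was 3898 and 3956 CPM in WT 1 and WT 2, against 3486 in KO 1 and 4345 in KO 2. That of 9 Th17 markers was 3494, 3150.2, 3310 and 1354 CPM. The largest part of the Th17 sum was Il17f, at 2224, 1987, 1994 and 637 CPM. Of the T cell markers 1 rose and 0 fell. Of the Th17 markers 2 rose and 1 fell, where 5.14% of all genes tested rose and 8.23% fell. The 12 myeloid markers summed to 60.9, 81.8, 152 and 318 CPM, and 7 of them rose, against 5.14% of all genes tested. The 7 B cell markers summed to 43.1, 97.6, 129 and 109.9 CPM with 1 higher, and the 7 tested CD8 T and NK cell markers to 79.4, 185, 407 and 332 CPM with 1 higher. The 4 erythroid markers tested summed to 2.97, 4.71, 1.36 and 2.98 CPM. Ncr1, a defining NK cell gene, was nearly absent from all 4 libraries and was not tested. Its expected counts were 0 in WT 1 and WT 2, and 1 in KO 1 and KO 2. Between the KO libraries, KO 1 had the lower summed level of T cell and myeloid markers and the higher one of Th17 markers. Of the 7 CD8 T and NK cell markers 5 were higher in KO 1, among them Cd8a (185 CPM in KO 1, 104 in KO 2), while Nkg7 (45.02 and 96.7) and Eomes (2.52 and 8.05) were higher in KO 2. Their part in the pattern of the members was not tested.

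Each KO library was also fitted alone against both WT libraries, with the lone library assumed to vary like the WT pair. With KO 1 alone, 24 members were called higher and 4 lower, 10 and 2 in the ATF4 response and 14 and 2 among the synthetases, where 22.2% of all genes were called higher and 24.0% lower. With KO 2 alone, 2 members were higher and 9 lower, 1 and 6 in the ATF4 response and 1 and 3 among the synthetases, where 17.3% of all genes were higher and 18.7% lower. The counts of members called thus turned from mostly higher to mostly lower with the KO mouse that was kept.

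Among the transcription factors, Atf4 (at chromosome 15, 80255184 to 80257545 in GRCm38.p6) measured 309 and 331 CPM in WT 1 and WT 2, against 581 in KO 1 and 294 in KO 2. KO 1 lay above the other 3 libraries, and KO 2 lay below both WT libraries, so the genotypes overlapped. The means were 320.1 ± 15.6 CPM in WT and 438 ± 203 in KO (SD, n = 2 each), and the log2 fold change was 0.45 (standard error 0.32, adjusted p = 0.383). It was 0.86 without KO 2 (adjusted p = 2.48e-05) and -0.12 without KO 1 (adjusted p = 0.355). Atf5, a close relative of Atf4, stood at 23.6, 27.2, 37.4 and 20.8 CPM in the same order of libraries, with a log2 fold change of 0.20 (adjusted p = 0.682).

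Atf3 (at chromosome 1, 191170296 to 191183333) measured 12.4 and 14.4 CPM in WT 1 and WT 2, against 25.6 in KO 1 and 24.3 in KO 2. Both KO libraries lay above both WT libraries, and KO 1 was 1.06 times KO 2. The means were 13.4 ± 1.39 CPM in WT and 24.9 ± 0.954 in KO (SD, n = 2 each), and Atf3 rose 1.86-fold, a log2 fold change of 0.90 (standard error 0.16, adjusted p = 0.0247). The call rested on both WT libraries, with an adjusted p of 0.219 if WT 1 was left out and 0.11 if WT 2 was.

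Ddit3 encodes CHOP, the factor that couples prolonged stress to cell death. It stood at 22.6 and 30.6 CPM in WT 1 and WT 2, against 18.9 in KO 1 and 21.7 in KO 2, lower in both KO libraries than in either WT library, with a log2 fold change of -0.39 (standard error 0.20, adjusted p = 0.24). Its end overlaps that of Mars on chromosome 10, and whether the counting used strand is not given in the sources used here. Cebpb, a C/EBP factor that partners ATF4, stood at 30.8 and 28.1 CPM in WT 1 and WT 2, against 46.9 in KO 1 and 35.9 in KO 2, higher in both KO libraries, with a log2 fold change of 0.49 (standard error 0.17, adjusted p = 0.114). Cebpg, another dimer partner of ATF4, was nearly level at 50.1, 50.2, 51.6 and 43.6 CPM (log2 fold change -0.08, adjusted p = 0.734).

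Of 4 enzymes of amino acid metabolism, Asns, Cth and Aldh18a1 were high in KO 1 alone, and Pycr1 was low in KO 2. Asns, the asparagine synthetase gene, stood at 115 and 131 CPM in WT 1 and WT 2, against 229.9 in KO 1 and 77.7 in KO 2, where KO 2 was the lowest library and KO 1 the highest. Its log2 fold change was 0.32 (standard error 0.47, adjusted p = 0.681). Cth, which makes cysteine from cystathionine, had the same order, at 26.7, 31.6, 55.6 and 16.1 CPM (log2 fold change 0.30, adjusted p = 0.739). KO 1 was 2.96 times KO 2 for Asns and 3.45 times for Cth. Aldh18a1 and Pycr1 encode enzymes of proline synthesis. Aldh18a1 stood at 151, 146, 252 and 148 CPM, with only KO 1 apart from the rest (log2 fold change 0.42, adjusted p = 0.312), and Pycr1 stood at 19.4, 25.8, 24.6 and 12.2 CPM, with KO 1 inside the WT range and KO 2 lowest (log2 fold change -0.30, adjusted p = 0.607).

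Chac1, which breaks down glutathione, showed the widest gap between the KO mice, at 7.18 and 6.33 CPM in WT 1 and WT 2, against 26.8 in KO 1 and 5.32 in KO 2. KO 1 was 5.04 times KO 2, and KO 2 lay below both WT libraries. The log2 fold change was 1.25 (standard error 0.71, adjusted p = 0.287). Trib3, a pseudokinase that feeds back on ATF4, stood at 23.7 and 26.1 CPM in WT 1 and WT 2, against 34.9 in KO 1 and 10.4 in KO 2, again with KO 1 highest and KO 2 lowest (log2 fold change -0.14, adjusted p = 0.883). Nupr1, a small stress-induced nuclear protein gene, ran in the same order at 6.97, 7.42, 10.4 and 4.03 CPM, with a log2 fold change of -0.00028 (adjusted p = 1.00).

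Vldlr (at chromosome 19, 27216480 to 27254231) measured 58.8 and 68.01 CPM in WT 1 and WT 2, against 4.40 in KO 1 and 2.29 in KO 2. These are expected counts of 1147, 1301, 91 and 46 reads. Both KO libraries lay far below both WT libraries. The means were 63.4 ± 6.51 CPM in WT and 3.35 ± 1.5 in KO (SD, n = 2 each), and Vldlr fell 18.9-fold, a log2 fold change of -4.24 (standard error 0.31, adjusted p = 0.00319). It was called whichever library was left out, with log2 fold changes between -4.79 and -3.85. Within this low range KO 1 was still 1.93 times KO 2.

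Among the synthetases, edgeR called none higher in KO and 1 lower, where 5.14% of all genes rose and 8.23% fell. In edgeR 3 had an unadjusted p under 0.05 (Aars higher, Dars and Qars lower). The DESeq2 Wald test called 1 higher and 1 lower, against 7.79% and 10.3% of all genes. The median log2 fold change of the synthetases was 0.40. Dars (at chromosome 1, 128363707 to 128417416) measured 200.2 and 216 CPM in WT 1 and WT 2, against 124 in KO 1 and 109.5 in KO 2. Both KO libraries were lower than both WT libraries. The means were 208 ± 11.3 CPM in WT and 117 ± 10.1 in KO (SD, n = 2 each), and Dars fell 1.79-fold, a log2 fold change of -0.84 (standard error 0.12, adjusted p = 0.0156). This call was lost without WT 1 (adjusted p = 0.0542) or WT 2 (0.104). Qars, for glutamine, also lay lower in both KO libraries, at 226 and 233 CPM in WT 1 and WT 2, against 176 in KO 1 and 181 in KO 2, which gave a log2 fold change of -0.36 (adjusted p = 0.0888).

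Aars, the alanine synthetase gene, had the largest positive log2 fold change of the 18. It stood at 198 and 186 CPM in WT 1 and WT 2, against 402 in KO 1 and 242 in KO 2, with KO 2 also above both WT libraries. Its log2 fold change was 0.75 (standard error 0.25, adjusted p = 0.107) in edgeR, and the adjusted p of the DESeq2 Wald test was 0.0186. Cars, for cysteine, stood at 75.4, 74.3, 151 and 79.8 CPM (log2 fold change 0.62, adjusted p = 0.216), and Gars, for glycine, at 264, 237, 472 and 264 CPM (log2 fold change 0.56, adjusted p = 0.241). In Cars and Gars KO 2 lay within or just above the WT range, and KO 1 alone stood apart.

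The same picture of 1 high library held for Nars (asparagine) at 216, 195, 371 and 187 CPM, for Tars (threonine) at 127, 115, 220.3 and 115 CPM and for Yars (tyrosine) at 91.5, 90.1, 163 and 91.5 CPM. Their log2 fold changes were 0.44 (adjusted p = 0.394), 0.48 (adjusted p = 0.334) and 0.49 (adjusted p = 0.28). Iars (isoleucine) stood at 218, 205, 346 and 206 CPM (log2 fold change 0.38, adjusted p = 0.355) and Lars (leucine) at 110.3, 102, 162 and 83.1 CPM (log2 fold change 0.21, adjusted p = 0.681). Lars and Nars in KO 2 lay below both WT libraries. Wars (tryptophan), Mars (methionine) and Hars (histidine) lay above the WT libraries in both KO libraries, but nearer to WT in KO 2. Their levels were 80.9, 76.01, 141 and 89.8 CPM for Wars (log2 fold change 0.55, adjusted p = 0.158), 125, 106, 181 and 133 CPM for Mars (log2 fold change 0.44, adjusted p = 0.168) and 111, 102, 170.5 and 113 CPM for Hars (log2 fold change 0.41, adjusted p = 0.241).

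The remaining 5 synthetases had log2 fold changes between -0.13 and 0.22. Eprs, the joint glutamate and proline synthetase, stood at 237, 234, 322 and 228 CPM (log2 fold change 0.22, adjusted p = 0.463), Rars (arginine) at 101, 103, 139 and 90.2 CPM (log2 fold change 0.17, adjusted p = 0.631) and Kars (lysine) at 246, 232, 303 and 246 CPM (log2 fold change 0.20, adjusted p = 0.401). KO 1 was still highest in these 3. Sars (serine) stood at 291, 287, 322 and 245 CPM (log2 fold change -0.03, adjusted p = 0.926) and Vars (valine) at 410.1, 399.6, 401 and 338 CPM (log2 fold change -0.13, adjusted p = 0.566). In Vars KO 1 lay between the WT libraries.

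Per transcript length, on the deposited TPM scale, Atf4 was the most abundant member. It stood at 366, 378, 751 and 355 TPM in WT 1, WT 2, KO 1 and KO 2. The synthetases spanned a WT mean of 211 TPM for Kars down to 50.2 for Lars, with Gars at 190.4, Vars at 178 and Dars at 169.7. Lowest in WT were Chac1 at 7.89, Atf3 at 12.3 and Vldlr at 16.7 TPM. On this scale KO 1 was the highest library for 28 members, against 26 in CPM.

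**Figure D5:**
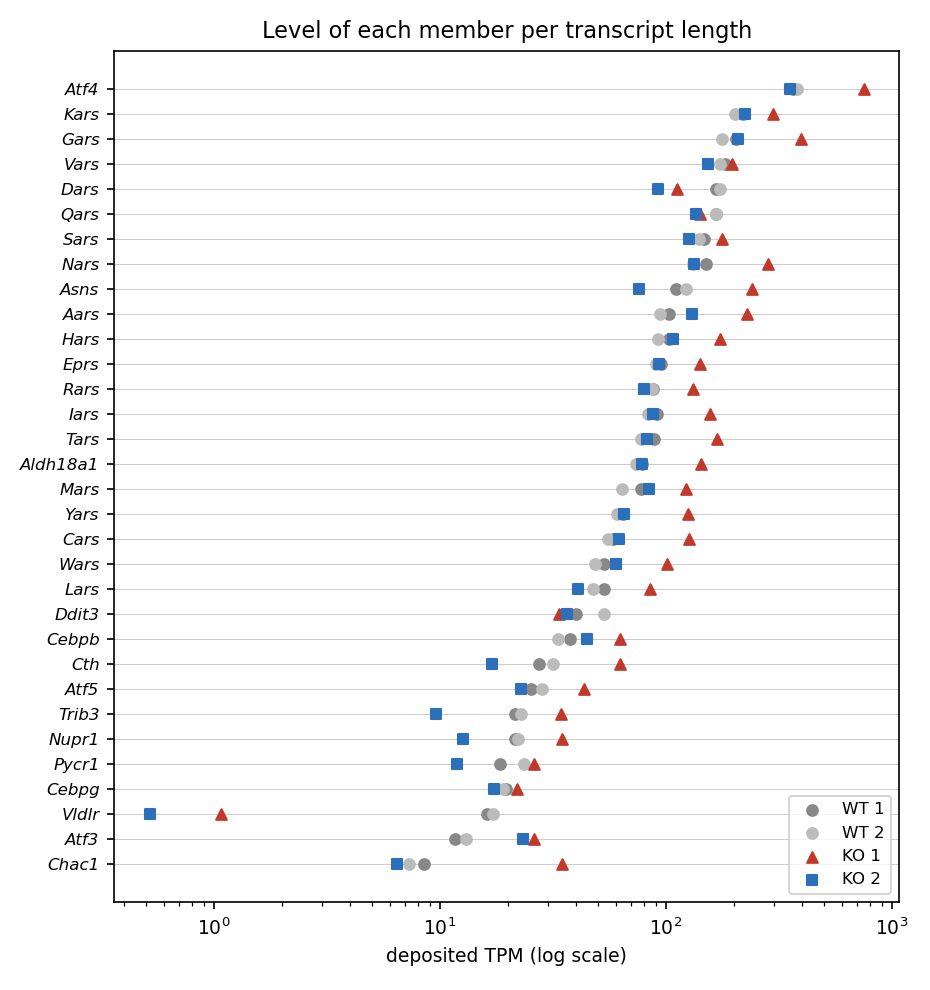
Deposited TPM of each member in each of the 4 libraries on a log axis, ordered by the mean of the 2 WT libraries. Atf4 is at the top in every library, the synthetases fill the range below it, and the KO 1 triangle is the rightmost symbol in 28 of 32 rows.

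The members were also described by groups chosen after their values were seen. The 8 synthetases of the multisynthetase complex (Dars, Eprs, Iars, Kars, Lars, Mars, Qars and Rars) had a median log2 fold change of 0.20 and a median log2 ratio of KO 1 to KO 2 of 0.47. For the 10 outside the complex these were 0.48 and 0.78. Dars and Qars, the synthetases lowest relative to WT, both belong to the complex. The 2 structural classes of synthetase had a median log2 fold change of 0.38 for 9 of class I and 0.43 for 8 of class II, Eprs holding both. KO 1 was highest in 7 of the 9 members with the element in the 250 bases before the start, in 12 of the 15 without it there (Trib3, Iars and Yars hold it after the start) and in 7 of the 8 with no window. Their median log2 ratios of KO 1 to KO 2 were 0.95, 0.45 and 0.78.

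Upstream of ATF4, a list of the eIF2 kinases, the eIF2 and eIF2B subunits, the phosphatase partners, Gcn1l1, Impact and Eif2a had 1 member that passed. Of 17 tested in edgeR, 0 rose and 1 fell, with 4 at an unadjusted p under 0.05, where 5.14% of all genes rose and 8.23% fell. DESeq2 called 1 higher and 1 lower, against 7.79% and 10.3% of all genes. The median log2 fold change of the list was 0.08. Ppp1r15a, which encodes the inducible phosphatase subunit GADD34, stood at 55.99 and 58.1 CPM in WT 1 and WT 2, against 39.4 in KO 1 and 30.1 in KO 2, and fell, with a log2 fold change of -0.71 (standard error 0.16, adjusted p = 0.045). That call was lost with scaling by library size alone (0.0587), without WT 1 (0.149) and without WT 2 (0.199). Eif2b3, an eIF2B subunit gene, stood at 17.6, 18.4, 34.9 and 25.7 CPM (log2 fold change 0.75, adjusted p = 0.0567) and was called with scaling by library size alone (0.0405). Eif2ak4, the gene of the amino acid sensor GCN2, stood at 40.8, 36.4, 28.8 and 30.1 CPM (log2 fold change -0.39, adjusted p = 0.105), and Eif2a at 91.99, 101, 77.01 and 72.02 CPM (log2 fold change -0.37, adjusted p = 0.0941).

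Other known ATF4 targets moved both ways. Of 30 listed, 28 were tested (not Fgf21 and Gdf15), and 3 rose, 5 fell and 20 did not pass. Of all genes tested, 5.14% rose and 8.23% fell. DESeq2 called 8 of the list higher and 6 lower, against 7.79% and 10.3% of all genes. The median log2 fold change of the list was 0.44 and its median log2 ratio of KO 1 to KO 2 was 0.69. KO 1 was highest in 17 of the 28, against 31.6% of all genes. Sesn2, a sensor of leucine that restrains mTORC1, stood at 29.4 and 28.3 CPM in WT 1 and WT 2, against 116 in KO 1 and 85.2 in KO 2, and rose (log2 fold change 1.80, adjusted p = 0.00604). The cystine transporter gene Slc7a11 stood at 2.46, 1.83, 9.44 and 13.1 CPM and rose (log2 fold change 2.39, adjusted p = 0.0106), and Mthfd2, an enzyme of mitochondrial folate metabolism, stood at 111, 98.7, 221 and 164 CPM and rose (log2 fold change 0.87, adjusted p = 0.0344). In Sesn2 and Mthfd2 both KO libraries lay above WT and KO 1 was the higher, while in Slc7a11 KO 2 was.

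Among those that fell, Ero1l, an oxidase for disulfide formation in the endoplasmic reticulum, stood at 1207 and 1402 CPM in WT 1 and WT 2, against 219.8 in KO 1 and 188 in KO 2, which gave a log2 fold change of -2.68 (adjusted p = 0.00225). The transcription factor gene Nfil3 stood at 179.6, 184, 55.1 and 47.2 CPM (log2 fold change -1.83, adjusted p = 0.00279), and Stc2, a secreted glycoprotein gene, at 28.4, 38.2, 5.91 and 3.13 CPM (log2 fold change -2.88, adjusted p = 0.00902). Both KO libraries were far below WT in these 3 genes, as in Vldlr. Ddit4, an inhibitor of mTORC1, stood at 423, 412, 178 and 207 CPM (log2 fold change -1.12, adjusted p = 0.00948), and the aspartate aminotransferase gene Got1 at 179, 174, 121 and 117 CPM (log2 fold change -0.57, adjusted p = 0.0282). The call of Mthfd2 was lost without WT 1 (adjusted p = 0.0718) and WT 2 (0.168), as was that of Got1 (0.289 and 0.266). Slc7a11, Mthfd2, Ddit4 and Got1 were named after their values were seen.

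Synthetases of mitochondria, which charge tRNA inside the organelle, had no member that passed. Of 17 tested, edgeR called 0 in either direction (3 at an unadjusted p under 0.05), where it called 13.4% of all genes tested. DESeq2 also called 0, against 7.79% of all genes higher and 10.3% lower. For these 17 the median log2 fold change was -0.08, and that of the log2 ratio of KO 1 to KO 2 was 0.07. KO 1 was highest in 7 of the 17, against 31.6% of all genes. The difference from the cytosolic synthetases was not tested. Mars2 stood at 10.3, 9.41, 21.01 and 12.1 CPM (log2 fold change 0.75, adjusted p = 0.148), Nars2 at 16.9, 15.9, 12.97 and 10.4 CPM (log2 fold change -0.48, adjusted p = 0.143) and Ears2 at 8.15, 8.42, 9.73 and 10.9 CPM (log2 fold change 0.32, adjusted p = 0.317).

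The phenylalanyl synthetase has 2 subunit genes, and 3 scaffold genes hold the multisynthetase complex together. In edgeR 1 of the 5 rose and 0 fell, where 5.14% of all genes rose and 8.23% fell. DESeq2 called 1 higher and 1 lower, against 7.79% and 10.3% of all genes. Of these 5, Eef1e1, a scaffold gene, stood at 32.05 and 32.3 CPM in WT 1 and WT 2, against 51.2 in KO 1 and 43.6 in KO 2, and rose (log2 fold change 0.56, adjusted p = 0.0489), a call lost without a filter on low counts (0.0505), without WT 1 (0.351) and without WT 2 (0.367). The scaffold gene Aimp1 lay lower in both KO libraries, at 79.8, 84.95, 60.3 and 59.5 CPM (log2 fold change -0.46, adjusted p = 0.0518), and was called lower by the DESeq2 Wald test (adjusted p = 0.0316). Aimp2 stood at 70.4, 67.8, 68.4 and 50.1 CPM (log2 fold change -0.22, adjusted p = 0.433), and Farsa at 81.99, 74.5, 95.98 and 73.1 CPM (log2 fold change 0.11, adjusted p = 0.679).

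Of 11 genes tested from a list of C/EBP, ATF, BATF and CREB names, 2 rose and 0 fell, where 5.14% of all genes rose and 8.23% fell. The median log2 fold change of the list was 0.14. Cebpa, a myeloid lineage factor, rose from very low levels, 0.256 and 0.314 CPM in WT 1 and WT 2, against 1.11 in KO 1 and 2.49 in KO 2. The log2 fold change of Cebpa was 2.63 (adjusted p = 0.0443). Its expected counts were 5 and 6 in WT 1 and WT 2, against 23 and 50 in KO 1 and KO 2. It therefore passed the filter on low counts only through the KO libraries. In the same libraries 7 of 12 myeloid markers rose, and a link to Cebpa was not tested. Atf6b stood at 63.5, 56.9, 83.9 and 86.7 CPM and rose (log2 fold change 0.50, adjusted p = 0.0484). Both calls were lost without WT 1 (adjusted p = 0.194 for Cebpa and 0.284 for Atf6b) and without WT 2 (0.158 and 0.556). Cebpz stood at 54.9, 47.1, 79.4 and 59.9 CPM (log2 fold change 0.45, adjusted p = 0.15) and Creb1 at 62.6, 59.9, 65.1 and 79.7 CPM (log2 fold change 0.24, adjusted p = 0.298).

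A list of 20 genes held chaperones of the endoplasmic reticulum and other genes of the ATF6 and IRE1 arms of the unfolded protein response. In edgeR 0 were higher and 1 lower (3 at an unadjusted p under 0.05), where 5.14% of all genes rose and 8.23% fell. DESeq2 called 2 higher and 1 lower, against 7.79% and 10.3% of all genes. Xbp1, the target of IRE1, stood at 257 and 250.4 CPM in WT 1 and WT 2, against 164 in KO 1 and 186 in KO 2, and fell (log2 fold change -0.53, adjusted p = 0.0465), a call lost with scaling by library size alone (0.0706), without WT 1 (0.369) and without WT 2 (0.357). The lectin chaperone gene Calr stood at 551, 532, 906 and 617 CPM (log2 fold change 0.49, adjusted p = 0.18), Dnajb11 at 51.3, 46.1, 87.5 and 66.3 CPM (log2 fold change 0.66, adjusted p = 0.0599) and Herpud1 at 59.9, 61.5, 133 and 80.8 CPM (log2 fold change 0.81, adjusted p = 0.0838). KO 1 was the highest library for these 3 genes and for 16 of the 20, against 31.6% of all genes. The median log2 ratio of KO 1 to KO 2 in the list was 0.37.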

How the data were processed

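For each gene and library the deposited table gives an expected count, an FPKM and a TPM. The expected counts, estimated by the authors per gene, are not normalised, and 69.4% of them were whole. The authors scaled FPKM to gene length and depth, and these values were not used here. The authors scaled the deposited TPM to a common sum per library, by the headers and the values. HISAT2 2.0.4, Bowtie2 2.2.5, RSEM 1.2.12 and GRCm38.p6 are named in the submitters' processing notes, with no role or order. No library kit, strand setting or annotation release is given in the sources used here.

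Expected counts were rounded, filtered with filterByExpr (minimum count 10, minimum total 15, 5241 genes removed) and tested with the robust quasi-likelihood fit of edgeR 4.0.16 in R 4.3.3, with TMM factors and genotype as the single term, over all 4 libraries. Benjamini-Hochberg adjustment ran over 12680 genes, and a gene with an adjusted p under 0.05 is described as changed. Standard errors were derived from the F statistics. With 2 residual degrees of freedom and a prior of 3.58, the number of mice limits the precision. The labels call the libraries separate mice, so p-values measure the spread between these mice and their cultures. Gene IDs were matched to RefSeq for 17787 genes, and 23 symbols turned into dates were restored. Promoter sequences are those of RefSeq, GRCm38.p6.

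The members, the lists and the tests were chosen with earlier results of these data known. The rule for named genes was Mapkapk5, all 32 members, and up to 4 genes with the smallest p-values of each other list. The alternatives were other size factors, library size alone, the DESeq2 1.42.0 Wald test, no filter, the mouse number as a block and each library left out. The deposited TPM scale and 2 other promoter searches were added after the data were seen. The steps were tested on simulated data. A few items that these rules would name are not reported here.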

Additional observations from a re-analysis of the deposited data

How the results depend on the processing

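Over all genes, 652 were higher and 1043 lower. The DESeq2 Wald test gave 988 higher, and leaving out each library in turn gave 209 to 2881 higher and 450.0 to 3118 lower. With library size as the only scaling, 918 genes were higher and 864 lower (51.5% of calls higher, against 38.5% with TMM), and the median over all genes was 0.12 on the log2 scale, against 0.02. Among the members, DESeq2 called 1 synthetase higher. Over the libraries left out in turn, 0 to 10 ATF4 response genes were higher and 1 to 6 lower, and 0 to 14 synthetases were higher and 0 to 3 lower. Members highest in KO 1 numbered 26 to 28 over the scalings tried.

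The mouse numbers are of different animals, and same-numbered libraries deviated together only weakly (correlation 0.17, 2 pairs). With the mouse number as a replicate block, 1338 genes were higher and 1597 lower, and 2 ATF4 response genes and 3 synthetases were higher. The adjusted p was then 0.0385 for Cebpb, 0.018 for Aars, 0.0345 for Mars and 0.0385 for Wars. The block changed the call of no other member. Among the scaffold genes Aimp1 was then called lower (0.0293).

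Scaling by library size alone turned the sign of Nupr1 (0.10), Cebpg (0.022) and Sars (0.069). Leaving out 1 library turned the sign of 17 members and of Farsa, and apart from Nupr1, which also turned without WT 2 (0.040), only leaving out a KO library did so. Over the 4 libraries left out in turn, the log2 fold change ran from -0.12 to 0.86 for Atf4, -1.26 to 0.48 for Trib3, -0.66 to 0.90 for Asns, -0.35 to 1.98 for Chac1, -0.013 to 0.75 for Aldh18a1, -0.89 to 0.12 for Pycr1, -0.84 to 0.52 for Nupr1, -0.29 to 0.55 for Atf5, -0.86 to 0.93 for Cth and -0.20 to 0.037 for Cebpg. For the synthetases it ran from -0.050 to 0.45 for Eprs, -0.043 to 0.70 for Iars, -0.35 to 0.60 for Lars, -0.14 to 0.85 for Nars, -0.24 to 0.15 for Sars, -0.066 to 0.86 for Tars and -0.18 to 0.44 for Rars, and for Farsa from -0.10 to 0.29. The cause was not tested. The lowest expected count among the members was 46 (Vldlr in KO 2), and only 2 mice per genotype were measured.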
